A study of Rattus norvegicus with 38 samples.

Results

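Hcn4 (ENSRNOG00000009450) and Cacna1d (ENSRNOG00000013147), the genes of a pair of pacemaker channels, were followed across 5 regions of failing and healthy rat hearts. They were taken by Ensembl gene ID from the deposited gene tables and are 2 of the 24057 genes listed there. The tables carry IDs only. The names Hcn4 and Cacna1d were given with the IDs, and no annotation used here ties these IDs to a symbol, so that positions in the genome are not given. Pieces came from the sinoatrial node in its inferior (iSAN) and superior (sSAN) part, from the right (RA) and the left (LA) atrium, and from the left ventricle (LV). Failing hearts gave 4 libraries of each region. Healthy hearts gave 4 libraries of each region except the left ventricle, which had 2. All were from male Sprague-Dawley rats aged 10 weeks. The protocol in the labels describes pups whose ascending aorta was constricted at an age of 1 week and whose left ventricle later became hypertrophic. Healthy libraries carry the same text, and the procedure on healthy rats is not stated.

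The sinoatrial node is the strip of tissue in the wall of the right atrium where each heartbeat starts. Hcn4 encodes the main subunit of the channels that carry the funny current, which helps to depolarize node cells between beats. This inward current is opened by hyperpolarization, and more readily so in the presence of cyclic AMP. Cacna1d encodes the pore of an L-type calcium channel that opens at more negative voltages than its relative in working heart muscle and adds inward calcium current to the same depolarization. In mammals both channels are known as part of the node's pacemaker machinery, and the calcium channel is also known from atrial muscle.

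Each library held between 17406473 and 27355777 estimated counts. The deposited levels are TPM, a unit that counts transcripts, scaled for transcript length and to the same total in each library, and levels below are TPM unless stated otherwise. Differences are on the log2 scale, the group named first minus the other, from edgeR's quasi-likelihood test on the estimated counts of all genes, scaled by TMM, with Benjamini-Hochberg adjustment over all genes tested in that comparison. A difference was called where its adjusted p was under 0.05. Libraries are named here by their titles, which end in a code that recurs across regions, as in iSAN0409, sSAN0409, RA_0409, LA_0409 and LV_0409 of failing hearts. Titles of the healthy node begin with SB_ for its inferior and ST_ for its superior part. Failing and healthy libraries share 0 codes, so a batch tied to the codes and the health state cannot be told apart. Whether a code marks an animal is not stated in the labels, and if it does not, p-values reflect the spread of these libraries alone, which may be technical. The ventricular libraries tended to be dominated by fewer genes, though not all stood apart from the others. Their 10 most abundant genes took 28.1% to 61.3% of the estimated counts, against 13.5% to 39.3% in the node and atrial libraries. These ranges overlap, and only LV_0506 (46.6%) and LV_0507 (61.3%) lay above all node and atrial libraries.

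The node was first set against the working muscle in healthy hearts. Hcn4 was higher in both parts of the node than in either atrium. In the healthy inferior node its levels were 10.7, 7.19, 13.5 and 10.7 TPM in SB_0920, SB_0921, SB_1001 and SB_1002. In the healthy superior node they were 7.69, 5.56, 13.5 and 20.9 TPM in ST_0920, ST_0921, ST_1001 and ST_1002. The healthy right atria held 4.01, 3.55, 2.81 and 3.19 TPM, and the healthy left atria held 1.19, 0.933, 1.36 and 0.719 TPM, in the same order of codes. All 8 node libraries lay above all 8 atrial ones, and each right atrium lay above each left atrium.

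**Figure D1:**
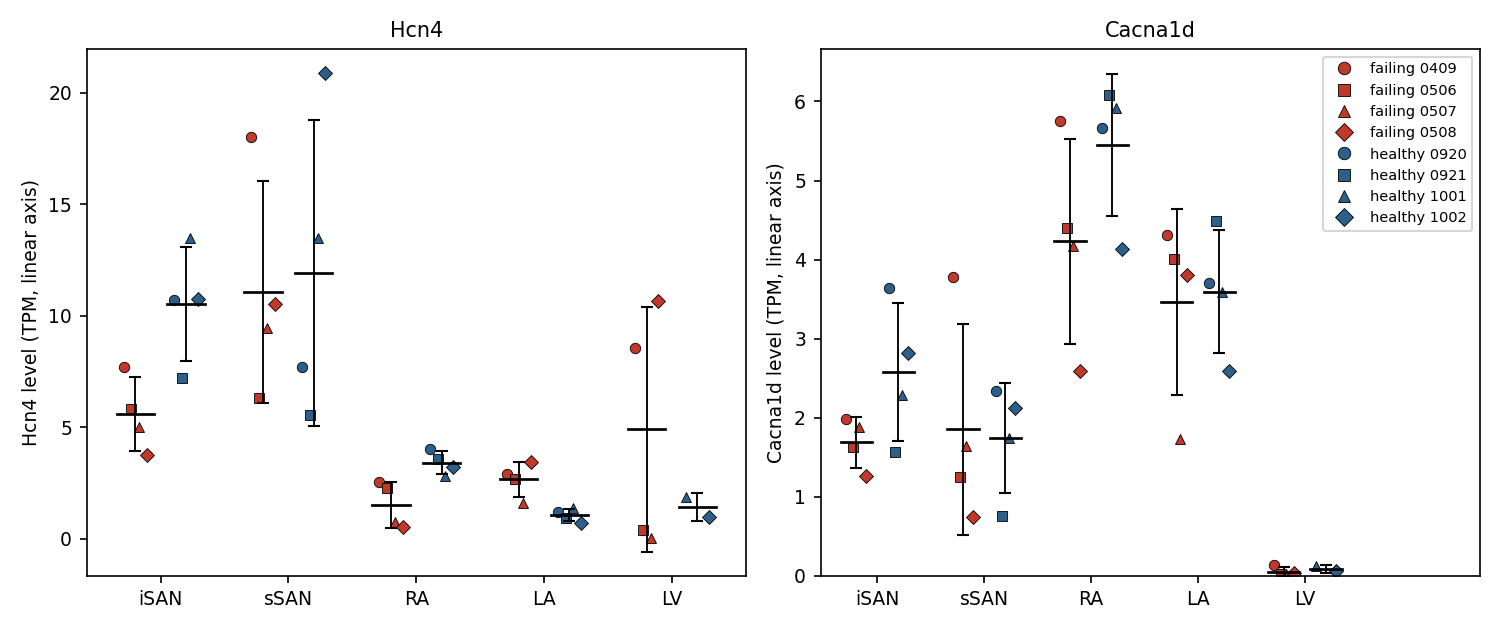
Level of Hcn4 (left panel) and Cacna1d (right panel) in TPM on linear axes, by region, with failing libraries in red and healthy libraries in blue. Each point is 1 library with its code given by shape, and the bars give the mean and SD of each group. Hcn4 is higher in the node than in the atria, Cacna1d is highest in the right atrium and close to 0 in the left ventricle, and the failing left ventricles spread from 0.0100 to 10.7 TPM of Hcn4.

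Hcn4 was 3.13-fold higher in the healthy inferior node than in the healthy right atrium (log2 difference 1.64, SE 0.14, adjusted p = 0.00010), in a comparison in which 17.6% of all genes tested were called. The superior node was 4.52-fold above the right atrium (2.18, SE 0.32, adjusted p = 0.0023; 23.2% of genes called). Against the left atrium, the inferior node was 9.78-fold higher (3.29, SE 0.19, adjusted p = 1.7e-05; 18.1% of genes called). The superior node was 14.1-fold above the left atrium (3.82, SE 0.37, adjusted p = 0.00051; 20.8% of genes called). Among all genes tested, 99.1% had a lower or equal log2 difference than Hcn4 in each of these left atrial comparisons. The parts of the node did not differ in a call: Hcn4 averaged 11.9 ± 6.85 TPM in the superior node and 10.5 ± 2.57 TPM in the inferior node (SD, n = 4 each), with a log2 difference of 0.54 (SE 0.31, adjusted p = 0.57), and 0.00698% of genes, 1 gene, were called. A single fit of all 38 libraries kept the direction of the inferior node over the right atrium and lost the call (1.60, adjusted p = 0.11), whereas a fit of the node and atrial libraries together, added after seeing the data, kept it (1.64, adjusted p = 0.0040).

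The atria also differed from each other in Hcn4. Healthy left atria averaged 1.05 ± 0.282 TPM and healthy right atria 3.39 ± 0.513 TPM (SD, n = 4 each), which differed by -1.65 (SE 0.18, adjusted p = 0.00011; 9.14% of genes called). The groups did not overlap. The adjusted p of this difference was 0.018 in the fit of the node and atrial libraries and 0.33 in the fit of all 38 libraries. The healthy left ventricles held 1.87 TPM (LV_1001) and 0.961 TPM (LV_1002). In TPM their mean was 1.35-fold that of the healthy left atria, and LV_1002 lay within the left atrial range. After TMM scaling, edgeR put the ventricle 2.27-fold above the left atrium (1.18, SE 0.28, adjusted p = 0.0064, with 43.5% of genes called). This call did not hold in each alternative. It was lost on unscaled TPM (0.22 on the log2(TPM + 1) scale, adjusted p = 0.29), in the fit of all 38 libraries (adjusted p = 0.29) and without LV_1001 (0.70, adjusted p = 0.14). The left ventricle was lower than the inferior node (-2.07, SE 0.25, adjusted p = 0.00066; 39.8% of genes called) and lower than the superior node (-2.62, SE 0.52, adjusted p = 0.012; 23.1% of genes called). Without LV_1001 the difference from the superior node was -3.10 (adjusted p = 0.054) and without LV_1002 it was -2.27 (adjusted p = 0.11), and the call was lost both times. With one of the healthy ventricles left out, the ventricular side of a fit is a single library, which is assumed to vary like the other group. In the fit of all 38 libraries the difference from the inferior node was -2.08 (adjusted p = 0.055). The difference of the ventricle from the right atrium was -0.47 (SE 0.22, adjusted p = 0.11). On unscaled TPM it was -0.88 on the log2(TPM + 1) scale and passed the threshold (adjusted p = 0.0018), as it did without LV_1001 (-0.96, adjusted p = 0.0096). In that unscaled comparison the median of all genes lay at -0.60.

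Cacna1d had another order of regions. Its levels in healthy right atria were 5.66, 6.08, 5.92 and 4.13 TPM in RA_0920, RA_0921, RA_1001 and RA_1002. In the same order of codes, the healthy left atria held 3.71, 4.49, 3.59 and 2.59 TPM. In the healthy inferior node its levels were 3.65, 1.57, 2.29 and 2.81 TPM. In the healthy superior node they were 2.34, 0.760, 1.74 and 2.13 TPM. Each node library lay below each right atrial one, while node and left atrial libraries overlapped. The pacemaker role of the gene in the background above thus went with levels that were lower in the node than in the right atrium in these libraries.

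In numbers, Cacna1d was 2.09-fold lower in the inferior node than in the right atrium of healthy hearts (-1.07, SE 0.20, adjusted p = 0.0082). The superior node was 2.42-fold below the right atrium (-1.28, SE 0.23, adjusted p = 0.0051). Against the left atrium, the differences of -0.50 for the inferior node (SE 0.21, adjusted p = 0.14) and -0.71 for the superior node (SE 0.23, adjusted p = 0.056) did not pass. The inferior node passed without SB_0920 (-0.71, adjusted p = 0.020). The superior node passed without ST_0921 (-0.53, adjusted p = 0.041), with DESeq2 (-0.72, adjusted p = 0.018) and on the log2(TPM + 1) scale (-0.77, adjusted p = 0.020), but not with the code as a block (-0.74, adjusted p = 0.088). Left atria averaged 3.59 ± 0.779 TPM and right atria 5.45 ± 0.895 TPM (SD, n = 4 each), which differed by -0.57 (SE 0.15, adjusted p = 0.038). Each left atrium lay below the right atrium of its code, and with the code as a block, where the codes pair these libraries, the difference was -0.58 (SE 0.070, adjusted p = 1.3e-05). Without the block, this call was lost with no filter on low counts, with limma and in both larger fits. It was also lost without LA_0920 (-0.59, adjusted p = 0.086), LA_1001 (-0.58, adjusted p = 0.091), LA_1002 (-0.46, adjusted p = 0.051), RA_0920 (-0.55, adjusted p = 0.093), RA_0921 (-0.55, adjusted p = 0.10) or RA_1001 (-0.51, adjusted p = 0.095). The parts of the node did not differ in a call (-0.21, SE 0.27, adjusted p = 0.80).

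Cacna1d was close to the limit of detection in the left ventricle. Failing ventricles held 0.133, 0.0265, 0.0102 and 0.0359 TPM in LV_0409, LV_0506, LV_0507 and LV_0508, from 22 estimated counts in LV_0409 (exact 95% Poisson interval 13.8 to 33.3) to 2 in LV_0507 (0.242 to 7.22). Healthy ventricles held 0.118 TPM in LV_1001 and 0.0530 TPM in LV_1002, which are 19 and 8 estimated counts. These intervals cover counting error only. In healthy hearts the ventricle was lower than the inferior node, with a log2 difference of -4.09 (SE 0.41, adjusted p = 0.00028). The differences from the superior node, the right atrium and the left atrium were -3.90 (SE 0.46, adjusted p = 0.0018), -5.20 (SE 0.28, adjusted p = 2.3e-07; 47.2% of genes called) and -4.62 (SE 0.29, adjusted p = 1.1e-06). In failing hearts the same 4 differences, in the same order, were -3.98 (SE 0.55, adjusted p = 0.0019; 25.4% of genes called), -4.35 (SE 0.65, adjusted p = 0.0037; 14.9%), -5.62 (SE 0.49, adjusted p = 0.00037; 9.99%) and -5.33 (SE 0.56, adjusted p = 0.0013; 10.8%). None of the 8 comparisons lost its call when any single library was left out, although the healthy fits without a ventricle take their spread from the other group alone.

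Within failing hearts Hcn4 was higher in both parts of the node than in the right atrium, and higher in the superior node than in the left atrium. Failing inferior nodes held 7.70, 5.82, 5.01 and 3.76 TPM in iSAN0409, iSAN0506, iSAN0507 and iSAN0508. In the same order of codes, failing superior nodes held 18.0, 6.28, 9.45 and 10.5 TPM. In failing right atria the levels were 2.52, 2.29, 0.758 and 0.508 TPM. Failing left atria had 2.92, 2.67, 1.60 and 3.45 TPM. All failing node libraries lay above all failing atrial libraries, the nearest values being 3.76 TPM in an inferior node and 3.45 TPM in a left atrium.

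Hcn4 was 7.05-fold higher in the failing superior node than in the failing right atrium (2.82, SE 0.45, adjusted p = 0.0068; 8.28% of genes called). The superior node was 3.98-fold above the failing left atrium (1.99, SE 0.30, adjusted p = 0.0066; 5.8% of genes called). For the inferior node the difference from the right atrium was 1.62 (SE 0.48, adjusted p = 0.045; 19% of genes called). With the code as a block, where the codes pair these libraries, it was 1.73 (adjusted p = 0.0053). Without the block, the call was lost with no filter (adjusted p = 0.061), in the fit of all 38 libraries (adjusted p = 0.064), and without iSAN0409 (1.23, adjusted p = 0.084), iSAN0506 (1.72, adjusted p = 0.073), iSAN0507 (1.68, adjusted p = 0.078), RA_0506 (1.84, adjusted p = 0.061), RA_0507 (1.43, adjusted p = 0.11) or RA_0508 (1.36, adjusted p = 0.069). Against the left atrium the inferior node differed by 0.80 (SE 0.34, adjusted p = 0.16; 11.9% of genes called) and passed with limma on log2(TPM + 1) (0.84, adjusted p = 0.040). Failing left atria did not differ from failing right atria in a call (0.84, SE 0.45, adjusted p = 0.63; 0.311% of genes called). The superior node exceeded the inferior node by 1.20 (SE 0.35, adjusted p = 0.63), and 0 of 14368 genes passed edgeR's test there, with 1130 at an unadjusted p under 0.05, while DESeq2 called 11 higher and 30 lower.

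**Figure D2:**
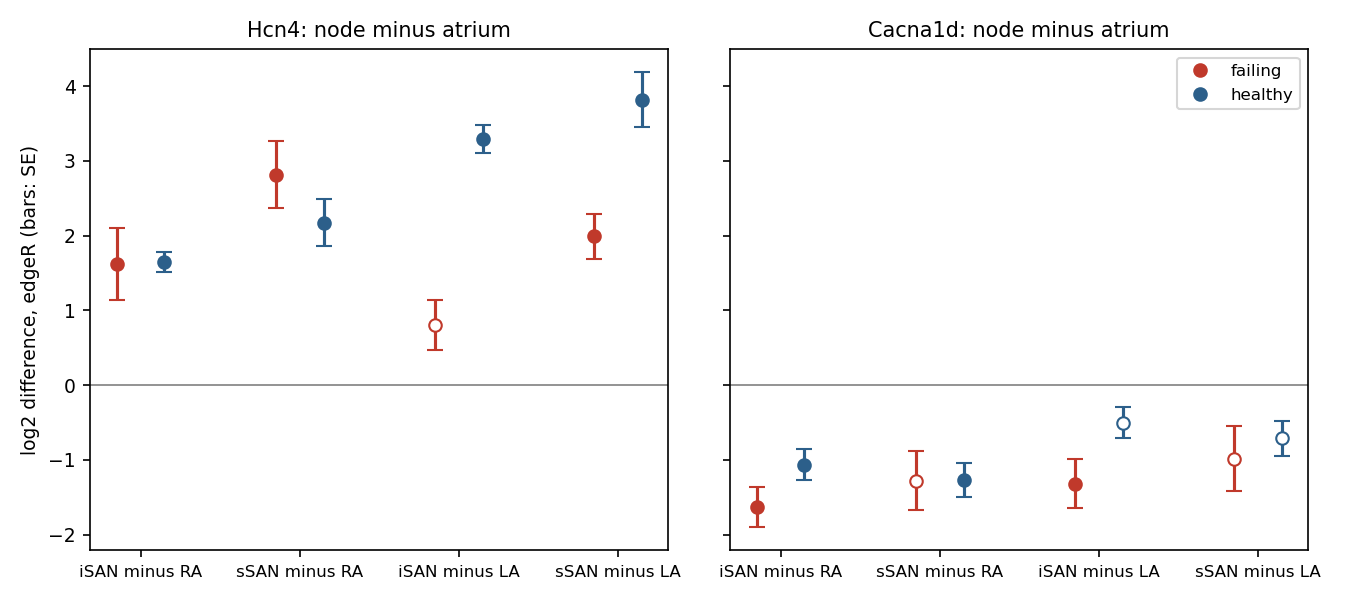
Log2 difference of each part of the node minus each atrium for Hcn4 (left panel) and Cacna1d (right panel), with failing hearts in red and healthy hearts in blue. Points are edgeR estimates, bars are 1 SE to either side, and filled points have an adjusted p under 0.05. Hcn4 lies above 0 and Cacna1d below 0 in all 8 comparisons of each panel, and the healthy inferior node minus left atrium difference of Hcn4 (3.29) is well above the failing one (0.80).

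In failing hearts Cacna1d was lower in the inferior node than in either atrium. Failing inferior nodes held 1.98, 1.63, 1.88 and 1.26 TPM in iSAN0409, iSAN0506, iSAN0507 and iSAN0508. In the same order of codes, failing superior nodes held 3.77, 1.25, 1.64 and 0.747 TPM, failing right atria 5.75, 4.40, 4.17 and 2.60 TPM, and failing left atria 4.31, 4.01, 1.72 and 3.80 TPM. Each inferior node lay below each right atrium, whereas sSAN0409 lay within the range of the right atria. Node and left atrium overlapped, with LA_0507 below iSAN0409, iSAN0507 and sSAN0409.

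The inferior node was 3.10-fold below the right atrium in failing hearts (-1.63, SE 0.27, adjusted p = 0.0048) and 2.49-fold below the left atrium (-1.32, SE 0.33, adjusted p = 0.033). The second of these calls was lost on unscaled TPM (-0.69 on the log2(TPM + 1) scale, adjusted p = 0.068), and without iSAN0506 (-1.21, adjusted p = 0.094), iSAN0507 (-1.37, adjusted p = 0.070), iSAN0508 (-1.17, adjusted p = 0.082), LA_0409 (-1.13, adjusted p = 0.081), LA_0506 (-1.33, adjusted p = 0.071) or LA_0508 (-1.27, adjusted p = 0.080). For the superior node the difference from the right atrium was -1.28 (SE 0.40, adjusted p = 0.082). It passed with the code as a block (-1.42, adjusted p = 0.0047), in a comparison in which the codes pair the libraries, and without sSAN0409 (-1.77, adjusted p = 0.015). Against the left atrium the superior node differed by -0.98 (SE 0.44, adjusted p = 0.25) and reached the threshold in the fit of the node and atrial libraries together (-0.997, adjusted p = 0.049). The atria did not differ in a call (-0.30, SE 0.29, adjusted p = 0.85), and neither did the parts of the node (0.35, SE 0.43, adjusted p = 0.82).

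With the regional pattern set out, failing hearts were compared with healthy ones region by region. The clearest change was in the left atrium, where Hcn4 rose. It averaged 2.66 ± 0.777 TPM in failing left atria and 1.05 ± 0.282 TPM in healthy left atria (SD, n = 4 each). Each failing left atrium, the lowest at 1.60 TPM, lay above each healthy one, the highest at 1.36 TPM. The rise was 2.92-fold (1.55, SE 0.27, adjusted p = 0.0018). It stands in a comparison in which 48.2% of all genes were called, and 95.4% of genes had a lower or equal log2 difference. With any single library left out the difference stayed between 1.39 and 1.73, with adjusted p from 0.00041 to 0.0080. In the fit of all 38 libraries the adjusted p was 0.053, and in the fit of the node and atrial libraries it was 0.0023. An exact two-sided permutation test over the 8 libraries gave p = 0.0286, the smallest that 4 against 4 libraries allow, and 0.143 after Benjamini-Hochberg adjustment over the 10 such tests (both genes in 5 regions), which does not pass. Cacna1d in the same left atria averaged 3.46 ± 1.18 TPM in failing hearts and 3.59 ± 0.779 TPM in healthy hearts, with a log2 difference of 0.16 (SE 0.26, adjusted p = 0.63) that turned to -0.072 on unscaled log2(TPM + 1). These are whole pieces of tissue, so a change in the number of cells of a type and a change in RNA per cell cannot be told apart.

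In the inferior node Hcn4 fell. It averaged 5.57 ± 1.65 TPM in failing inferior nodes and 10.5 ± 2.57 TPM in healthy ones (SD, n = 4 each), 1.93-fold lower (-0.95, SE 0.29, adjusted p = 0.029; 38.5% of genes called). The groups overlapped by a single library on each side, iSAN0409 at 7.70 TPM and the healthy SB_0921 at 7.19 TPM. The direction was kept in each alternative, but the call was lost without iSAN0506 (-0.87, adjusted p = 0.067), iSAN0507 (-0.89, adjusted p = 0.073), iSAN0508 (-0.77, adjusted p = 0.057), SB_0920 (-0.95, adjusted p = 0.058), SB_1001 (-0.86, adjusted p = 0.072) or SB_1002 (-0.95, adjusted p = 0.058). In the fit of all 38 libraries the adjusted p was 0.25, and in the fit of the node and atrial libraries it was 0.034. The exact two-sided permutation test gave p = 0.0571 (0.190 adjusted over the 10 tests). Cacna1d in the inferior node averaged 1.69 ± 0.320 TPM in failing hearts and 2.58 ± 0.876 TPM in healthy hearts (-0.66, SE 0.28, adjusted p = 0.090). It passed the threshold without iSAN0409 (-0.90, adjusted p = 0.026).

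**Figure D3:**
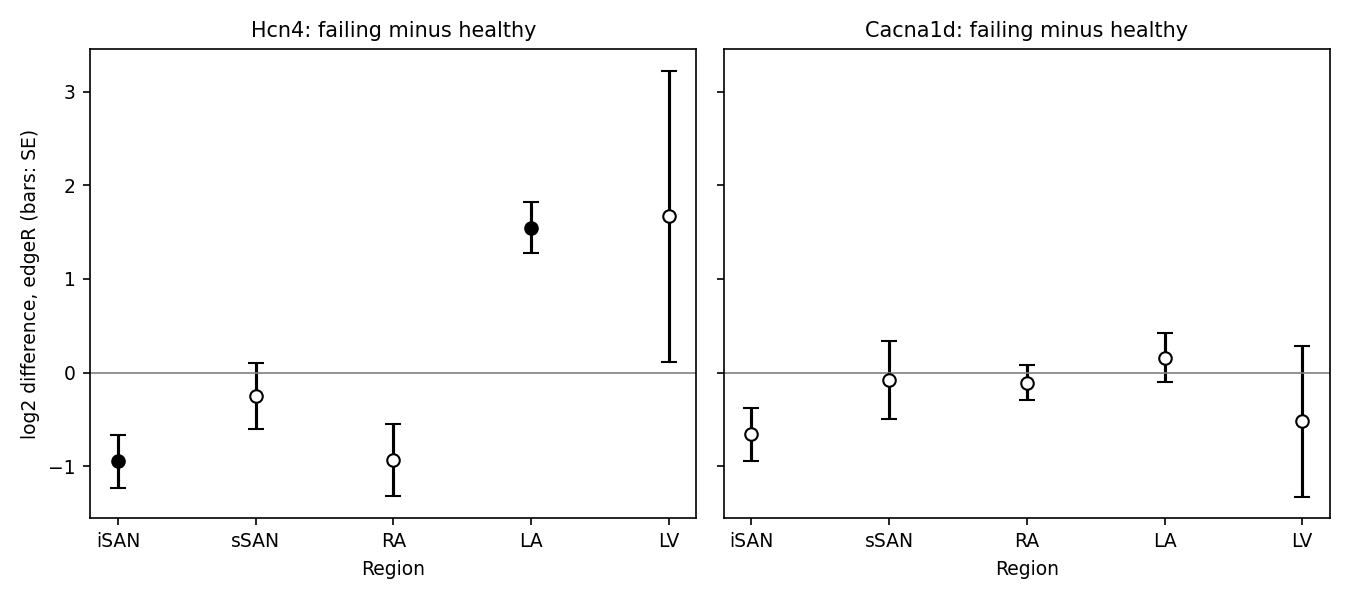
Log2 difference of failing minus healthy hearts in each region for Hcn4 (left panel) and Cacna1d (right panel). Points are edgeR estimates, bars are 1 SE to either side, and filled points have an adjusted p under 0.05. Hcn4 is called in the inferior node (-0.95) and the left atrium (1.55), Cacna1d is called in no region, and the ventricular estimates have the widest bars.

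The superior node showed no call in either gene. Hcn4 averaged 11.1 ± 4.97 TPM in failing superior nodes and 11.9 ± 6.85 TPM in healthy ones (-0.25, SE 0.35, adjusted p = 0.65; 13.5% of genes called). Its range in each health state was wider than in the inferior node, from 6.28 to 18.0 TPM in failing and from 5.56 to 20.9 TPM in healthy hearts. Cacna1d averaged 1.85 ± 1.33 TPM in failing superior nodes and 1.74 ± 0.701 TPM in healthy ones (-0.078, SE 0.41, adjusted p = 0.91). Differences of this size were not detectable against the spread of these libraries.

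In the right atrium Hcn4 averaged 1.52 ± 1.03 TPM in failing hearts and 3.39 ± 0.513 TPM in healthy hearts (SD, n = 4 each). The groups did not overlap, with the highest failing library at 2.52 TPM and the lowest healthy one at 2.81 TPM. The log2 difference was -0.93 (SE 0.38) and missed the threshold of edgeR (adjusted p = 0.068; 47.5% of genes called). It passed with DESeq2 (-0.95, adjusted p = 0.030) and with limma on log2(TPM + 1) (-0.89, adjusted p = 0.020), and edgeR passed it without RA_0409 (-1.27, adjusted p = 0.024). Unscaled TPM were shifted as a whole in these atria. There limma on log2(TPM + 1) called 5101 genes lower and 1659 higher in failing hearts, and the typical gene differed by -0.19 (median). With TMM-scaled TPM that median was -0.0058, and limma still passed Hcn4 with a smaller difference (-0.74, adjusted p = 0.034). The exact permutation test, on unscaled log2(TPM + 0.1), gave the smallest possible p of 0.0286, but 0.143 after adjustment over the 10 tests. The failing right atria fell into a pair at 2.52 and 2.29 TPM (RA_0409 and RA_0506) and a pair at 0.758 and 0.508 TPM (RA_0507 and RA_0508). Cacna1d averaged 4.23 ± 1.29 TPM in failing right atria and 5.45 ± 0.895 TPM in healthy ones, and after TMM scaling the log2 difference was -0.11 (SE 0.18, adjusted p = 0.65).

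Hcn4 differed widely among the failing left ventricles. LV_0409 held 8.53 TPM, LV_0506 held 0.407 TPM, LV_0507 held 0.0100 TPM and LV_0508 held 10.7 TPM, against 1.87 and 0.961 TPM in the healthy ventricles. In estimated counts these failing libraries held 746, 41, 1 and 790. The exact 95% Poisson interval of the single estimated count was 0.0253 to 5.57, and those of LV_0409 and LV_0508 were 693 to 802 and 736 to 847, so counting error was small beside the spread between libraries. The highest failing ventricles reached the levels of the node and the lowest lay under each other library of the series. LV_0507 was also the library with the largest share of counts in its 10 most abundant genes (61.3%) and the smallest TMM factor (0.379), and LV_0508 had the smallest share among ventricles (28.1%) and the largest factor among them (0.945). The part of library composition in the Hcn4 spread was not tested. The log2 difference of failing minus healthy ventricles was 1.67 (SE 1.55, adjusted p = 0.64). In this comparison edgeR called 0 of 13670 genes (0%), with 1510 at an unadjusted p under 0.05, while DESeq2 called 280 higher and 76 lower. Cacna1d differed by -0.52 (SE 0.81, adjusted p = 0.77).

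The spread of the failing ventricles carried into the comparisons between regions. Failing left ventricles averaged 4.90 ± 5.49 TPM of Hcn4, and none of their differences from the other failing regions passed. Those from the inferior node, the superior node, the right atrium and the left atrium were 0.49 (SE 1.03, adjusted p = 0.74), -0.72 (SE 1.00, adjusted p = 0.65), 2.10 (SE 1.12, adjusted p = 0.27) and 1.26 (SE 1.03, adjusted p = 0.48). The fit of all 38 libraries passed the excess over the right atrium (2.14, adjusted p = 0.0095). On the log2(TPM + 1) scale the first and the last of these differences turned to -0.86 and -0.018.

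Whether the effect of heart failure itself differed between regions was tested with interaction terms. The Hcn4 effect in the inferior node minus that in the left atrium was -2.53 (SE 0.42, adjusted p = 0.011), the only one of 10 pairs of regions that passed for either gene, in a test in which 0.932% of all genes passed. With single libraries left out it stayed between -2.91 and -2.34, with adjusted p from 0.0014 to 0.033. In the fit of all 38 libraries its adjusted p was 0.25, and in the fit of the node and atrial libraries it was 0.016. The effect in the left atrium minus that in the right atrium was 2.48 (SE 0.52, adjusted p = 0.067; 0.171% of genes called) and passed with DESeq2 (2.51, adjusted p = 0.00071), with limma on log2(TPM + 1) (1.71, adjusted p = 0.041), without LA_0507 (2.65, adjusted p = 0.045) and without RA_0409 (2.82, adjusted p = 0.035). The effect in the superior node minus that in the left atrium was -1.83 (SE 0.49, adjusted p = 0.11; 0.652% of genes called) and passed with DESeq2 (-1.82, adjusted p = 0.014). The Hcn4 effects in the inferior node and the right atrium differed by -0.0022 (SE 0.64, adjusted p = 1.00; 0.0203% of genes called). For Cacna1d the largest interaction among node and atrial regions was the inferior node minus the left atrium, at -0.86 (SE 0.41, adjusted p = 0.36). Comparisons of the ventricular effect with that of the inferior node, the superior node, the right atrium and the left atrium gave Hcn4 differences of 2.64, 1.93, 2.63 and 0.13, with SE from 1.36 to 1.45 and adjusted p from 0.77 to 1.00, where 0.00661%, 0.00664%, 0.0474% and 0.114% of genes were called. The parts of the node differed by 0.69 in the Hcn4 effect (SE 0.50, adjusted p = 0.96), in a test in which edgeR called 0 of 14918 genes, with 598 at an unadjusted p under 0.05, and DESeq2 called 0.

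The level of Hcn4 relative to Cacna1d, both in TPM and taken library by library, set the node apart from the atria. Geometric means of the ratio of Hcn4 to Cacna1d were 3.25 in failing and 4.17 in healthy inferior nodes, and 6.64 in failing and 6.53 in healthy superior nodes. Right atria had 0.300 in failing and 0.624 in healthy hearts. In left atria the ratio was 0.784 in failing and 0.290 in healthy hearts. The ratio was above 1 in all 16 node libraries, from 2.67 to 14.1, and below 1 in all 16 atrial libraries, from 0.182 to 0.928. It is given without a test because it combines the pair of genes.

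**Figure D4:**
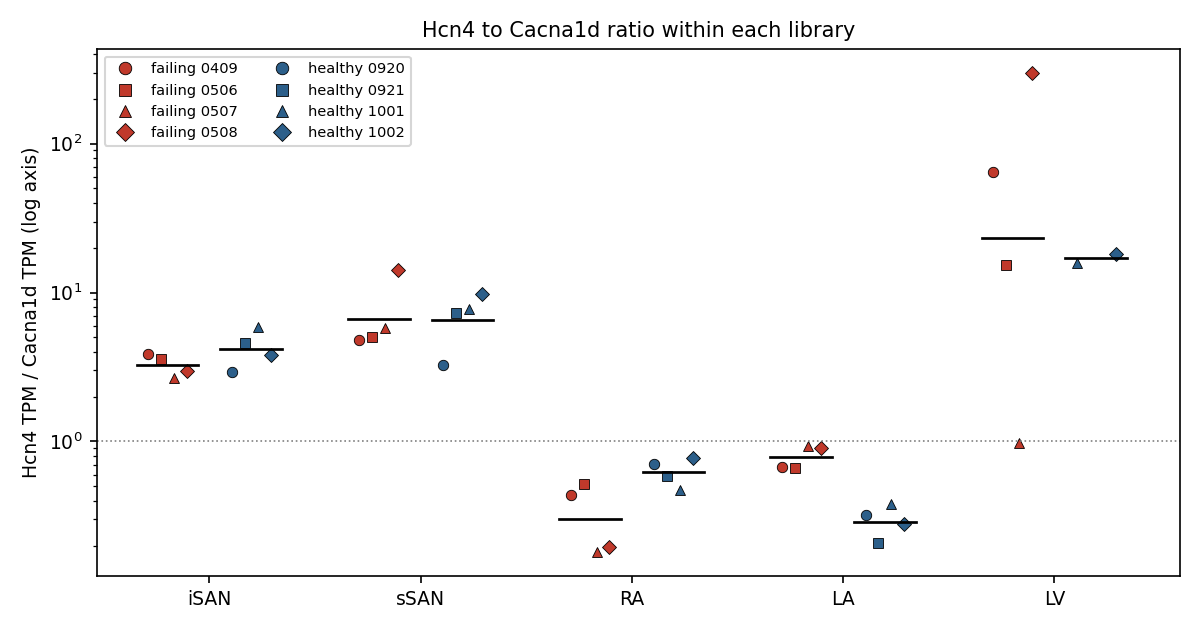
Ratio of Hcn4 TPM to Cacna1d TPM in each library on a log axis, by region, with failing libraries in red and healthy libraries in blue. Bars are geometric means and the dotted line marks equal levels. Node libraries lie above 1 and atrial libraries below 1, the failing left atria (0.665 to 0.928) lie above the healthy ones (0.208 to 0.379), and the failing left ventricles spread from 0.980 to 297.

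In failing left atria the ratios were 0.676, 0.665, 0.928 and 0.906 in LA_0409, LA_0506, LA_0507 and LA_0508, against 0.322, 0.208, 0.379 and 0.278 in the healthy LA_0920, LA_0921, LA_1001 and LA_1002. A ratio within a library does not depend on library scaling, and these groups did not overlap. Failing right atria had 0.438, 0.520, 0.182 and 0.196, against 0.709, 0.584, 0.475 and 0.773 in healthy right atria, with an overlap between the failing RA_0506 and the healthy RA_1001. Failing left ventricles had 64.1, 15.4, 0.980 and 297, against 15.9 and 18.1 in healthy left ventricles. All these ventricular ratios rest on few estimated counts of Cacna1d. There were 22 in LV_0409, 5 in LV_0506, 2 in LV_0507, 5 in LV_0508, 19 in LV_1001 and 8 in LV_1002. The ratio of LV_0507 also rests on 1 estimated count of Hcn4.

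The libraries of a code kept some of their order across failing regions. Cacna1d was highest in iSAN0409, sSAN0409, RA_0409, LA_0409 and LV_0409, the libraries of 1 code, among the failing libraries of each region. For Hcn4 the same code was highest in iSAN0409, sSAN0409 and RA_0409 and second in LA_0409 and LV_0409. Another code was highest for Hcn4 in LA_0508 and LV_0508 and lowest in iSAN0508 and RA_0508. In healthy hearts Cacna1d was highest in RA_0921 and LA_0921 but lowest in SB_0921 and ST_0921. Among healthy libraries of each region, Hcn4 was highest in SB_1001, ST_1002, RA_0920, LA_1001 and LV_1001. These orders are given without a test.

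Both genes are sums of several transcripts in the deposited transcript table. The transcripts were matched to the genes through their values: in each library the Hcn4 level equalled the sum of 2 adjacent transcript entries, and the Cacna1d level the sum of 5, within 1e-06 TPM. A transcript listed at 0 in each library cannot be assigned this way. Of the Hcn4 TPM summed over all 38 libraries, ENSRNOT00000012644 held 69.9% and ENSRNOT00000103911 held 30.1%. The main one was above 0 in all 38 libraries and the other in 34. Of the Cacna1d TPM, ENSRNOT00000051371 held 44.0%, ENSRNOT00000095730 34.6%, ENSRNOT00000048459 12.8%, ENSRNOT00000047737 6.72% and ENSRNOT00000040759 1.90%. How the quantification divided reads between overlapping transcripts is uncertain, since the read assignments were not used here.

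**Figure D5:**
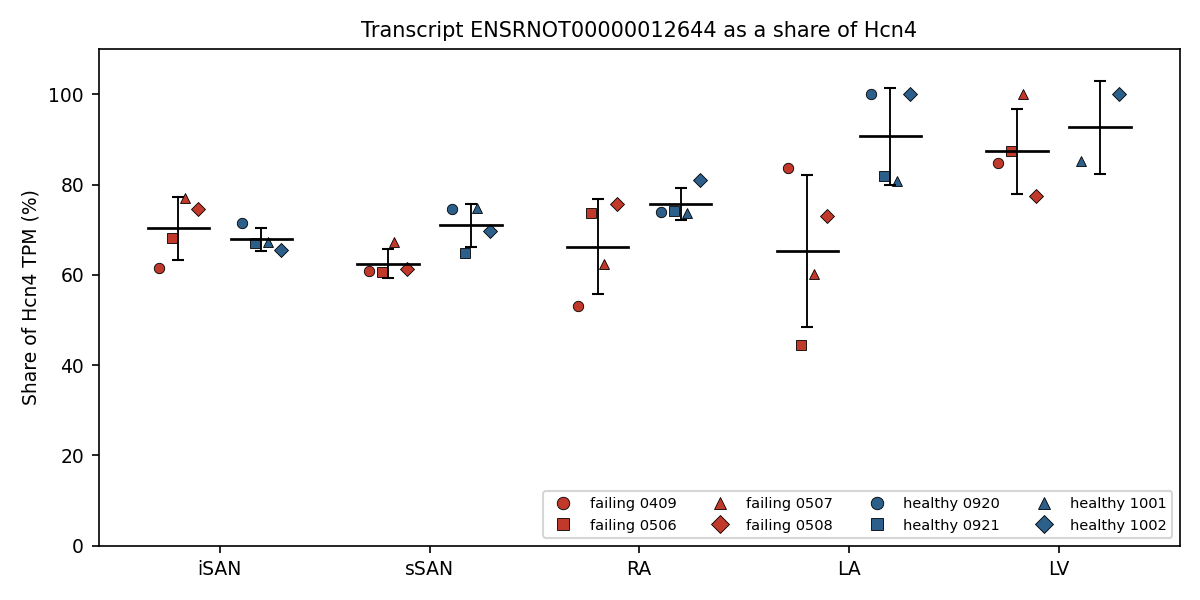
Share of the Hcn4 TPM held by transcript ENSRNOT00000012644 in percent, by region, with failing libraries in red and healthy libraries in blue. Each point is 1 library and the bars give the mean and SD. Shares lie near 60% to 80% in the node, the healthy left atria lie between 80.9% and 100%, and the failing left atria spread from 44.4% to 83.6%.

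The share of ENSRNOT00000012644 averaged 65.3% ± 16.9 in failing left atria and 90.7% ± 10.7 in healthy left atria (SD, n = 4 each). An exact permutation test, two-sided, gave p = 0.0857 (0.214 after Benjamini-Hochberg adjustment over 5 regions), and LA_0409 at 83.6% overlapped the healthy ones. In superior nodes the share was 62.5% ± 3.20 in failing and 71.0% ± 4.77 in healthy hearts (exact p = 0.0571, adjusted 0.214). It was 70.3% ± 6.96 in failing and 67.9% ± 2.60 in healthy inferior nodes (exact p = 0.543, adjusted 0.600), and 66.3% ± 10.5 in failing and 75.8% ± 3.51 in healthy right atria (exact p = 0.200, adjusted 0.333). In left ventricles it was 87.4% ± 9.42 in failing (n = 4) and 92.7% ± 10.4 in healthy hearts (n = 2), with an exact p of 0.600 (adjusted 0.600) where the smallest possible p is 0.0667. The failing mean includes LV_0507 at 100%, which rests on 1 estimated count of Hcn4, and LV_0506, which rests on 41. The healthy LV_1002 was at 100% on 75 estimated counts. No region passed. These shares were examined after seeing the data. In TPM, ENSRNOT00000103911 averaged 0.882 ± 0.441 in failing left atria and 0.107 ± 0.129 in healthy left atria, where it was at 0 in LA_0920 and LA_1002. ENSRNOT00000012644 averaged 1.78 ± 0.817 in failing and 0.944 ± 0.237 in healthy left atria.

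Log2 CPM, from counts scaled by TMM-adjusted library size, was taken for 12088 genes with a mean of at least 1. The genes whose levels followed each member most closely were sought among them over all 38 libraries by Pearson correlation. For Hcn4 these were ENSRNOG00000030151 (r = 0.77) and ENSRNOG00000006569 (r = 0.73), and over the 32 node and atrial libraries alone their correlations were 0.65 and 0.54. The third and the fourth gene in that order had 0.72 and 0.79 over the node and atrial libraries, above both, so the order for Hcn4 depends on the ventricles. For Cacna1d they were ENSRNOG00000003769 (r = 0.98) and ENSRNOG00000061050 (r = 0.96), with 0.89 and 0.85 over the node and atrial libraries. The points share regions, codes and library composition, and the low ventricular levels of Cacna1d enter its correlations, so these values are descriptions of these libraries only.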

How the data were processed

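RNA was sequenced in 38 libraries from small pieces of rat heart (TruSeq RNA kit, per the labels' protocols). The submitters' processing notes name Trimmomatic 0.39 and kallisto 0.48.0. Genome build and annotation release: not given in the sources used here. Estimated counts, which are not whole numbers, and TPM were deposited by the authors for genes and for transcripts. For the tests the estimated counts were rounded.

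After filterByExpr (count minimum 10, total minimum 15) and TMM scaling, edgeR 4.0.16 in R 4.3.3 ran its quasi-likelihood test with robust settings, and p-values were adjusted over all genes by Benjamini-Hochberg with a threshold of 0.05. Each fit held the groups compared, in 35 comparisons. The alternatives were the size factors of DESeq2, DESeq2 1.42.0 itself, no filter, limma 3.58.1 on log2(TPM + 1), log2(TPM + 0.1) and TMM-scaled TPM, a fit of all groups, a replicate block on the code, and leaving out single libraries. A fit of the 8 node and atrial groups and the transcript shares were chosen after seeing the data. Single values were compared with exact two-sided permutation tests over libraries, of log2(TPM + 0.1) for levels. For some of the comparisons, the edgeR, DESeq2 and limma steps were also run on simulated counts. These were drawn independently for each library, with no pairing by code, and their outcome is not reported here.

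The code was taken to pair libraries where every same-coded pair's deviations from the group means correlated over 0.1 across genes, with 3 or more pairs. This held for healthy node parts against each atrium, for the healthy atria, and in failing hearts for the parts of the node, each part of the node against the right atrium, and the ventricle against the superior node and the right atrium. This pairing rests on the shared codes and on the data.

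The IDs matched 0 of 24057 entries of the reference table used here (assembly GRCr8), so lists of other channel genes and of cell type markers were not applied, and the labelled tissues were not checked against markers. Both members are reported in each library, with the 2 IDs most correlated with each. The members, lists and tests were chosen with earlier results of these data known.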

Additional observations from a re-analysis of the deposited data

Results flagged for a closer look

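The Hcn4 effect of heart failure in the inferior node and in the left atrium differed by -2.53 on the log2 scale (SE 0.42, edgeR adjusted p = 0.011), with a fall in the inferior node of failing hearts (-0.95) and a rise in their left atrium (1.55). Top 10 gene shares averaged 18.8% ± 5.51 in failing and 23.4% ± 3.50 in healthy inferior nodes, and 25.6% ± 2.71 in failing and 23.5% ± 0.666 in healthy left atria (SD, n = 4 each). Their part in the difference was not tested.

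A few single libraries lay far from the others of their group of 4. The ratio of Hcn4 to Cacna1d in the failing superior node sSAN0508 was 14.1, while the other 3 lay between 4.78 and 5.75. That library held the lowest Cacna1d level of its group (0.747 TPM) and the second highest Hcn4 level (10.5 TPM). The share of ENSRNOT00000012644 in Hcn4 was 67.3% in the failing superior node sSAN0507, against 60.5% to 61.2% in the other 3. The same share was 81.0% in the healthy right atrium RA_1002, against 73.8% to 74.2% in the other 3. Each group of 4 libraries was examined in this way for the levels of both genes, their ratio and this share. For normally distributed values, a gap of this size appears by chance in about 1 in 20 groups for each quantity examined. Many groups and quantities were examined, so some such gaps are expected by chance. Whether the ratios and shares are normally distributed was not tested.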

How the results depend on the processing

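The differences of Hcn4 between the superior node and each atrium, in failing and in healthy hearts, the difference between the healthy inferior node and the left atrium, and the low ventricular levels of Cacna1d kept their direction and their call in each alternative run. So did the Cacna1d differences from the right atrium of the healthy inferior node (-1.07), the healthy superior node (-1.28) and the failing inferior node (-1.63). Between failing and healthy ventricles edgeR called 0 of 13670 genes. That comparison had 4 failing libraries, which differed widely in Hcn4, and 2 healthy ones, and the part of each in the lack of calls was not tested. Log2 differences of the alternatives that changed a call or a direction follow. Where no value shows otherwise, the cause was not tested.

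When all 38 libraries were fitted together, failing ventricles included, Hcn4 lost its calls for failing minus healthy inferior nodes (-0.91) and left atria (1.56), for the healthy inferior node minus the right atrium (1.60), the left atrium minus the right atrium (-1.67), the ventricle minus the inferior node (-2.08) and the ventricle minus the left atrium (1.18), for the failing inferior node minus the right atrium (1.63), and for the health effect in the inferior node minus that in the left atrium (-2.47). The health effect on Hcn4 in the inferior node minus that in the right atrium was 0.028. The excess of Hcn4 in the failing ventricle over the right atrium gained a call (2.14). Cacna1d lost its call for the healthy left minus right atrium (-0.58) and gained one for the failing superior node minus the right atrium (-1.28). In the fit of the node and atrial groups alone, Cacna1d lost the healthy left minus right atrium (-0.57) and gained the failing superior node minus the right atrium (-1.30) and minus the left atrium (-0.997). No call of Hcn4 changed in that fit.

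DESeq2 gained calls for Hcn4 in failing minus healthy right atria (-0.95), for its health effect in the left minus the right atrium (2.51) and in the superior node minus the left atrium (-1.82), and for Cacna1d in the healthy superior node minus the left atrium (-0.72) and the failing superior node minus the right atrium (-1.28). It put the Hcn4 health effect in the inferior node minus the right atrium at 0.0095. With no filter on low counts, the calls for Cacna1d in the healthy left minus right atrium (-0.57) and for Hcn4 in the failing inferior node minus the right atrium (1.62) were lost. DESeq2's type of size factors changed no call and no direction.

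With limma on log2(TPM + 1) and on log2(TPM + 0.1), in that order, calls were gained for Hcn4 in failing minus healthy right atria (-0.89 and -1.37), the healthy ventricle minus the right atrium (-0.88 and -1.26) and the failing inferior node minus the left atrium (0.84 and 1.05), and for Cacna1d in the healthy superior node minus the left atrium (-0.77 and -1.08). Calls were lost for Hcn4 in the healthy ventricle minus the left atrium (0.22 and 0.37), and for Cacna1d in the healthy left minus right atrium (-0.49 and -0.60) and the failing inferior node minus the left atrium (-0.69 and -0.94). The direction turned, with no call, for Cacna1d in failing minus healthy left atria (-0.072 and -0.11) and the failing superior minus inferior node (-0.0096 and -0.081), and for Hcn4 in the failing ventricle minus the inferior node (-0.86 and -1.86) and minus the left atrium (-0.018 and -0.82). Among differences of health effects it turned for Hcn4 in the inferior node minus the right atrium (0.077 and 0.45) and the ventricle minus the left atrium (-0.24 and -1.19), and for Cacna1d in the superior node minus the left atrium (0.065 and 0.066) and the ventricle minus the right atrium (0.28 and 0.062). On log2(TPM + 1) alone it turned for Cacna1d in the ventricle minus the left atrium (0.025) and the Hcn4 health effect in the left minus the right atrium gained a call (1.71). On TMM-scaled TPM, Hcn4 gained calls for failing minus healthy right atria (-0.74) and for its health effect in the left minus the right atrium (1.68), and Cacna1d lost the healthy left minus right atrium (-0.47). The direction turned there for Hcn4 in the failing ventricle minus the inferior node (-0.23) and for the health effects in the ventricle minus the left atrium on Hcn4 (-0.29) and minus the superior node (0.054) and the right atrium (0.077) on Cacna1d.

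With the code as a replicate block, the call for Cacna1d in the failing superior node minus the right atrium was gained (-1.42), and no other call changed. The direction turned, with no call, for Hcn4 in the failing ventricle minus the inferior node (-0.64), for the Hcn4 health effect in the inferior node minus the right atrium (0.095) and the ventricle minus the left atrium (-0.99), and for the Cacna1d health effect in the superior node minus the right atrium (-0.061) and the ventricle minus the inferior node (-0.019).

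Leaving out each library in turn moved these differences over the following ranges, where a healthy ventricle left alone is assumed to vary like the other group. For failing minus healthy hearts, Hcn4 ranged from -1.33 to -0.77 in the inferior node, from -0.50 to 0.040 in the superior node and from -1.27 to -0.66 in the right atrium, and Cacna1d from -0.90 to -0.46 in the inferior node, from -0.57 to 0.18 in the superior node, from -0.26 to 0.038 in the right atrium, from -0.013 to 0.39 in the left atrium and from -0.93 to 0.052 in the ventricle, where the fit without LV_0409 dropped the gene. In healthy hearts, Hcn4 ranged from -3.10 to -2.27 for the ventricle minus the superior node, from -0.96 to -0.12 for the ventricle minus the right atrium and from 0.70 to 1.53 for the ventricle minus the left atrium, and Cacna1d from -0.71 to -0.37 for the inferior node minus the left atrium, from -0.86 to -0.53 for the superior node minus the left atrium and from -0.68 to -0.46 for the left minus the right atrium. In failing hearts, Hcn4 ranged from 1.23 to 1.96 for the inferior node minus the right atrium and from -0.0099 to 0.91 for the ventricle minus the inferior node, and Cacna1d from -0.14 to 0.61 for the superior minus the inferior node, from -1.77 to -1.02 for the superior node minus the right atrium and from -1.55 to -1.13 for the inferior node minus the left atrium. Differences of health effects on Hcn4 ranged from -0.39 to 0.33 for the inferior node minus the right atrium, from 2.22 to 2.82 for the left minus the right atrium and from -0.40 to 0.61 for the ventricle minus the left atrium. Those on Cacna1d ranged from -0.44 to 0.31 for the superior node minus the right atrium, and for the ventricle from -0.69 to 0.79 minus the inferior node, from -1.30 to 0.18 minus the superior node and from -1.25 to 0.25 minus the right atrium. The log2 ratio of Hcn4 to Cacna1d, failing minus healthy, ranged from -0.34 to 0.22 in the superior node, from -1.32 to -0.82 in the right atrium and from -0.78 to 1.97 in the ventricle. The share of ENSRNOT00000012644, failing minus healthy, ranged from -12.6 to 2.06 percentage points in the ventricle.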
